A study of Homo sapiens with 8 samples.

Results

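JJN3 and KMS11 are established human multiple myeloma cell lines, and their chromatin accessibility was read by ATAC-seq, which counts the cuts that a transposase makes in open DNA. The comparison described here is GNE-781 added on top of pomalidomide: the 2 libraries of cells given 200 nM pomalidomide and 40 nM GNE-781 (the combination) against the 2 libraries of cells given 200 nM pomalidomide alone, 1 library per line in each group. These were 4 of the 8 libraries of the series, chosen by their treatment labels. The other 4 held cells of the same lines given 40 nM GNE-781 or DMSO, the solvent, and every treatment lasted 48 h. All groups were grown in the same serum-supplemented medium. The study's design text also names cells that overexpress BATF or eGFP, but no label of these libraries states either construct.

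Pomalidomide binds cereblon, the substrate receptor of a ubiquitin ligase, and directs the ligase to destroy the lymphoid transcription factors IKZF1 and IKZF3. GNE-781 occupies the bromodomain of the acetyltransferases EP300 (p300) and CREBBP (CBP), which acetylate histones at enhancers. Plasma cell enhancers are held by lymphoid factors such as IRF4, PRDM1 and POU2AF1, and myeloma cells depend on several of these. The comparison asks what the bromodomain inhibitor changes in accessibility once pomalidomide is already present.

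The deposited table gave read counts in 62528 peaks, of which 62234 had a mean of at least 2 CPM (counts scaled to library size) over the 8 libraries and were tested. The combination libraries held 2060036 counts in JJN3 and 5435673 in KMS11, against 3218581 and 4586400 in the pomalidomide libraries of the same lines. The combination library was thus the shallower of the pair in JJN3 and the deeper in KMS11. Of 10 plasma cell marker genes 9 had a peak, and TNFRSF17 was the exception. The peaks of that list held 0.108% of the counts in JJN3 and 0.0653% in KMS11 with the combination, against 0.119% and 0.0751% with pomalidomide. Peaks were also annotated to 12 of 20 T and NK cell markers, which held 0.0319% and 0.033% of the counts with the combination and 0.0242% and 0.0335% with pomalidomide. An accessible peak does not show that its gene is expressed, and in bulk libraries fewer open cells and less opening per cell cannot be told apart.

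Few single peaks were called as changed when GNE-781 was added to pomalidomide. By edgeR's quasi-likelihood test over all 8 libraries, with the cell line as a block, 7 of 62234 peaks (0.0112%) passed an adjusted p of 0.05, the threshold for a call. Of these 6 (0.00964%) were lower with the combination and 1 (0.00161%) was higher. The lower peaks described here were annotated to TXNDC5, SUMO2P20, VOPP1, SEC24D and FAM20C, and the higher one to PTPN14. All 7 moved the same way in both lines, which a call with the line as a block favours. The fit with only the 4 compared libraries called 82 peaks (0.132%), among them all 7, and DESeq2's Wald test called 0. No call of the 7 was kept without the JJN3 combination library, without the KMS11 combination library or without the KMS11 pomalidomide library. With 1 library per line and treatment, the residual spread comes from disagreement between JJN3 and KMS11 in their treatment changes. Differences between the lines in drug response and technical noise cannot be told apart in it. edgeR draws the spread of each peak toward that of all peaks, with 62.8 prior degrees of freedom against 3 residual ones. Each edgeR p-value thus rests mostly on the spread shared over peaks, and little on that peak's own disagreement. Separate cultures are not stated for the libraries.

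The TXNDC5 peak fell with the combination in both lines. TXNDC5 encodes a disulfide isomerase of the endoplasmic reticulum, the compartment in which plasma cells fold their secreted protein. The peak lies inside the gene at chr6:7897840-7898490 (GRCh38, as are all coordinates here), 1752 bp from the annotated start. Distances here run to the start of the transcript entry given for that peak. Peaks of 1 gene can have different entries, as in TXNDC5 and FAM20C. The called TXNDC5 peak read 15 CPM in JJN3 and 7.66 CPM in KMS11 with the combination, against 37.3 CPM and 24.2 CPM with pomalidomide. Both combination values lay below both pomalidomide values. The log2 change was −1.5 ± 0.25 (SE) with an adjusted p of 0.0058 in edgeR. From the counts alone, the ratio of combination to pomalidomide was 0.403 in JJN3 (95% interval 0.261 to 0.604) and 0.316 in KMS11 (0.217 to 0.453). These exact intervals cover counting error only. Another peak over the read-through transcript BLOC1S5-TXNDC5, at chr6:7962953-7963777, read 34.4 and 15.5 CPM with the combination and 67.3 and 31.5 CPM with pomalidomide, and was not called (log2 change −1.01 ± 0.21, adjusted p 0.0722 in edgeR). Of the 5 tested peaks annotated to TXNDC5 itself, 3 had a negative log2 change. The promoter peak among them, at chr6:7909965-7910175, changed by −0.12 ± 0.33 and was not called.

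SEC24D encodes a component of the COPII coat, which carries cargo out of the endoplasmic reticulum. Its called peak, at chr4:118760211-118760836 inside the gene and 77836 bp from the start, fell by 1.76 ± 0.32 on the log2 scale (adjusted p 0.00974 in edgeR). It read 3.39 CPM in JJN3 and 7.84 CPM in KMS11 with the combination, against 13.3 and 26.6 CPM with pomalidomide. The JJN3 combination value rests on 7 counts, and the ratio there was 0.255 with a 95% interval of 0.0962 to 0.574. Of the 3 tested peaks of SEC24D, 2 had a negative log2 change. The peak at chr4:118776224-118776576 went the other way, by 0.91 ± 0.47, with 1.4 in JJN3 and 0.49 in KMS11. The peak nearest the start, 1925 bp away, changed by −0.23 ± 0.19, and neither was called. FAM20C encodes a kinase of the Golgi that phosphorylates secreted proteins. Its called peak is intergenic, at chr7:263484-264138, 17589 bp from the annotated start, and read 28.1 and 20.7 CPM with the combination against 69.3 and 36.7 CPM with pomalidomide. For SEC24D and FAM20C as well, the combination values of both lines lay below both pomalidomide values. The log2 change was −1.02 ± 0.2 with an adjusted p of 0.0294 in edgeR. A neighbouring peak at chr7:262910-263223 changed by −0.87 ± 0.21 and was not called (adjusted p 0.143). The 6 peaks of FAM20C, of which 5 had a negative log2 change, summed to a log2 change of −0.59 ± 0.14 that did not pass over gene sums in the 8-library fit (adjusted p 0.284 in edgeR) and was called in the fit of the 4 compared libraries (−0.61 ± 0.13, adjusted p 0.0345).

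VOPP1, whose product is a vesicular protein, had its called peak inside the gene at chr7:55508271-55508926, 64062 bp from the start. It fell to 9.21 CPM in JJN3 and 11.0 CPM in KMS11 with the combination, against 24.0 and 34.5 CPM with pomalidomide (log2 change −1.5 ± 0.27, adjusted p 0.00867 in edgeR). Of the 18 tested peaks of VOPP1, the called one included, 16 had a negative log2 change. The median of the 18 was −0.18, beside −0.03 over all tested peaks. The VOPP1 promoter peak changed by −0.1 ± 0.18 and was not called. The peak annotated to SUMO2P20, a pseudogene of the ubiquitin-like modifier SUMO2, is intergenic at chr8:70013403-70013924 and 25706 bp from the annotated start. It read 9.7 and 6.59 CPM with the combination and 35.0 and 17.2 CPM with pomalidomide (log2 change −1.57 ± 0.28, adjusted p 0.00867 in edgeR). For VOPP1 and SUMO2P20 the combination values of both lines lay below both pomalidomide values. Whether any of these peaks controls the gene it is annotated to was not measured.

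PTPN14, which encodes a protein tyrosine phosphatase, held the only peak called higher in the 8-library fit. The peak lies inside the gene at chr1:214494540-214495071, 57378 bp from the start. It read 7.27 CPM in JJN3 and 18.7 CPM in KMS11 with the combination, against 1.0 and 4.72 CPM with pomalidomide. The log2 change was 2.14 ± 0.42 with an adjusted p of 0.0263 in edgeR, and both combination values exceeded both pomalidomide values. The JJN3 pomalidomide library held 3 counts there, so the ratio of 7.27 in that line has a 95% interval of 2.06 to 39.2, and in KMS11 it was 3.96 (2.49 to 6.59). Of the 8 tested peaks of PTPN14 only 2 had a negative log2 change, and the median was 0.17.

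**Figure D1:**
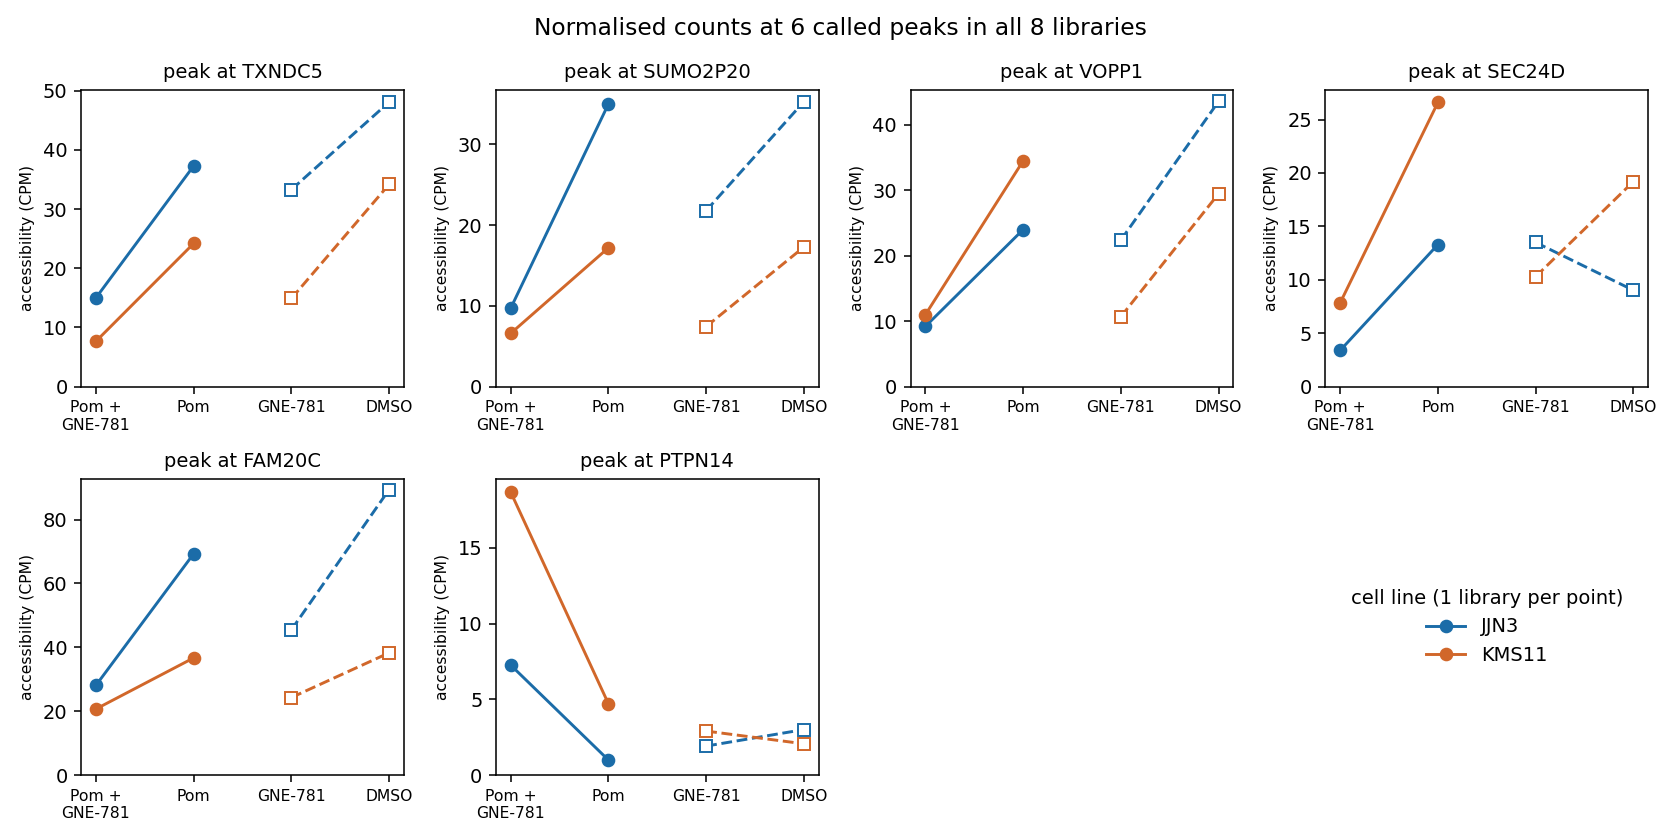
Accessibility (CPM with TMM scaling, vertical axis) of 6 called peaks in each of the 8 libraries, 1 panel per peak, with the combination, pomalidomide, GNE-781 and DMSO libraries of each line as points. In both lines the 5 lower peaks shown sit below pomalidomide with the combination, as at TXNDC5 (15 and 7.66 CPM against 37.3 and 24.2 CPM), and PTPN14 sits above it.

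The next peaks in order of p were read as values, since they were not called. On the lower side these were BLOC1S5-TXNDC5, TRAPPC11, the SLC29A1 promoter and CRB2, with adjusted p from 0.0722 to 0.0789. TRAPPC11 encodes a subunit of a vesicle trafficking complex. Its peak, at chr4:183722782-183723696, read 23.8 and 44.9 CPM with the combination against 53.3 and 75.0 CPM with pomalidomide. SLC29A1 encodes the nucleoside transporter ENT1, and its promoter peak at chr6:44218818-44219795 read 42.2 CPM in JJN3 and 17.1 CPM in KMS11 with the combination, against 83.3 and 32.4 CPM with pomalidomide (log2 change −0.96 ± 0.2, adjusted p 0.0739 in edgeR). Each line had about the same change, −0.97 in JJN3 and −0.9 in KMS11. The intergenic peak annotated to CRB2, a cell polarity gene, at chr9:123339121-123340510, read 24.2 and 33.8 CPM with the combination and 61.3 and 51.7 CPM with pomalidomide (−0.91 ± 0.2, adjusted p 0.0789).

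Only 2 of the 20 peaks named by rank overlap a promoter window in the RefSeq table (GRCh38.p14, from 250 bases before to 50 after the start), and these are printed because the values above were read over them. The first is the SLC29A1 promoter, chr6:44219365-44219664 on the plus strand. Capitals mark the matches to 8 short motifs searched on both strands, here an E box (CACGTG) and an SP/KLF motif (CCCGCCC) that occurs once on each strand:
SLC29A1: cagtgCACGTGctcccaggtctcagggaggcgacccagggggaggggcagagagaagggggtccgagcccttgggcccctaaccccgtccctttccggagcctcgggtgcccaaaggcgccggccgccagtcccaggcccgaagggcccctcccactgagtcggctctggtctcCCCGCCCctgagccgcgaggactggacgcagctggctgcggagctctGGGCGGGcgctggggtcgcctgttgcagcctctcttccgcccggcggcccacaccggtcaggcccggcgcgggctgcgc
The second lies within the peak annotated to CRB2, at the start of the uncharacterised entry LOC124902266, chr9:123340001-123340300 on the minus strand, with capitals on an AP-1 motif (TGANTCA):
LOC124902266: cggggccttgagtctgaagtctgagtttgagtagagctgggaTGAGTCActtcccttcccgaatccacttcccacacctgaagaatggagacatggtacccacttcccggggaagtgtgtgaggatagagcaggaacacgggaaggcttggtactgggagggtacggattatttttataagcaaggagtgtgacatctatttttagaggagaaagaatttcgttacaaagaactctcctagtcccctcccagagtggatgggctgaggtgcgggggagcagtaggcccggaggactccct
Over 35116 RefSeq promoters of the same length, 7.26% held the E box, 33.1% the SP/KLF motif and 7.71% the AP-1 motif. The other motifs searched, without a match in either window, were TGANNTCA (in 11.5% of promoters), the ETS motif CCGGAAGT (4.14%), the NF-kB motif GGGNNTTCC (6.58%), the IRF motif GAAANNGAA (8.11%) and the MAF motif TGCTGAG (6.7%). TGANTCA and TGANNTCA share their outer bases, and no letters here show that a factor was bound.

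Of the uncalled peaks on the higher side, 8 shared an adjusted p of 0.101 and the peak in PVT1, a long noncoding RNA gene next to MYC, had 0.133. They included peaks of ARID1A, a subunit of the SWI/SNF remodeller, and of PTK2, the focal adhesion kinase. The authors' annotation places both within 1000 bp of a transcript start, but neither overlaps a RefSeq promoter window. The ARID1A peak at chr1:26771590-26772049 read 22.3 and 21.4 CPM with the combination and 13.0 and 6.22 CPM with pomalidomide. The PTK2 peak at chr8:141002097-141002489 read 46.5 and 10.2 CPM with the combination and 18.3 and 4.72 CPM with pomalidomide. The deubiquitinase gene OTUD7B, with a peak inside it at chr1:149997538-149998170, read 46.1 and 16.2 CPM against 18.0 and 8.58 CPM. In these 3 peaks each line was higher with the combination.

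Below the calls, more peaks leaned lower than higher. At an unadjusted p under 0.05 there were 3121 lower peaks (5.01%) and 1484 higher ones (2.38%), together 4605 (7.4%), so that 67.8% of these were lower with the combination. The split depended on scaling, depth and test: 52.7% were lower with total counts as the only scaling, 50.5% after thinning to equal depth and 77.2% in DESeq2. Accordingly no lean of the whole set is read from it. Across all 62234 peaks the log2 ratio of combination over pomalidomide in JJN3 and in KMS11 had a Pearson correlation of 0.12, given as a description over peaks, which share libraries and are not independent replicates.

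**Figure D2:**
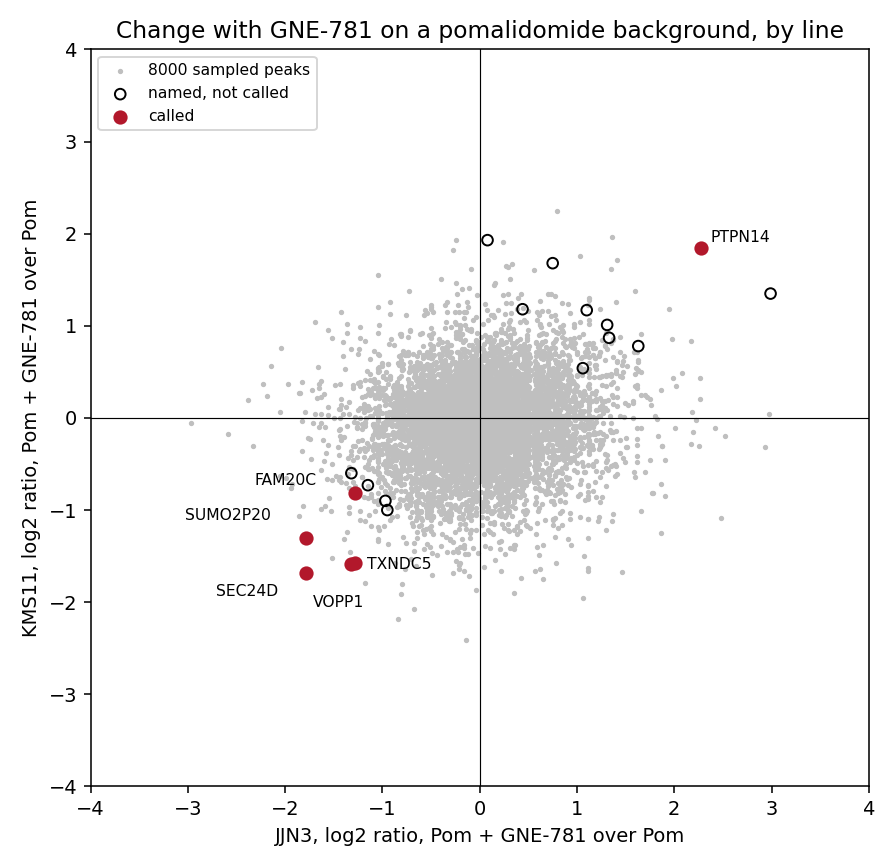
Log2 ratio of combination over pomalidomide in JJN3 (horizontal axis) and KMS11 (vertical axis), with 8000 peaks drawn at random in grey, named but uncalled peaks as open circles and 6 called peaks in red. The grey cloud is round, with a correlation of 0.12 over all peaks, while the called lower peaks lie in the lower left and PTPN14 in the upper right (2.27 in JJN3 and 1.85 in KMS11).

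The fit of the 4 compared libraries alone, which leaves 1 residual degree of freedom, called 60 peaks lower (0.0964%) and 22 higher (0.0354%). Its spread, too, is shared over peaks. Of the 60 lower peaks 33 lie inside genes, 25 are intergenic and 2 are promoter peaks, and the log2 changes ran from −3.97 to −0.78 with a median of −1.2. The 22 higher peaks comprised 9 inside genes, 11 intergenic and 2 promoter peaks, from 0.8 to 2.41 with a median of 1.34. In the 8-library fit all 82 kept their sign, with adjusted p up to 0.393 on the lower side and 0.275 on the higher side. Only 1 of the 82 belonged to a listed gene, a peak inside BANK1, a B cell adaptor gene, with 7 and 74 counts with the combination and 10 and 172 with pomalidomide. That peak was not lower in JJN3, where the log2 ratio was 0.02, against −1.44 in KMS11.

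The GNE-781 and DMSO libraries took no part in that 4-library fit, so they offered a reading of GNE-781 in other libraries, without pomalidomide. Of the 60 lower peaks, 41 (68.3%) were also lower with GNE-781 than with DMSO in both lines, against 26.6% of all peaks. Of the 22 higher peaks, 14 (63.6%) were higher in both lines, against 25.7% of all peaks. The changes there were smaller: the lower peaks had median log2 ratios of −0.4 in JJN3 and −0.83 in KMS11, beside −1.2 in the fit that picked them, and the higher peaks had 0.41 and 0.25, beside 1.34. The peaks had been picked for their size in the other libraries, and what part this has in the smaller values was not tested. At an unadjusted p under 0.05 the same fit held 5117 peaks (8.22%), 3186 lower (5.12%) and 1931 higher (3.1%), and the share with the same sign in both lines of the other libraries was 52% of the lower and 44.1% of the higher ones. Over all peaks, the changes with and without pomalidomide had a correlation of 0.14 in JJN3 and 0.22 in KMS11, as a description.

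Side by side, the called lower peaks described above had a negative log2 change with GNE-781 alone as well. In edgeR's 8-library fit this was −0.88 ± 0.24 at TXNDC5, −0.93 ± 0.30 at SUMO2P20, −1.19 ± 0.29 at VOPP1 and −0.81 ± 0.21 at FAM20C. At each of these peaks both lines were lower with GNE-781 than with DMSO. SEC24D read 13.5 CPM in JJN3 and 10.3 CPM in KMS11 with GNE-781, against 9.02 and 19.2 CPM with DMSO. The JJN3 values there rest on 21 and 12 counts, so no rise in that line is read from them. PTPN14 read 1.92 and 2.91 CPM with GNE-781 against 3.01 and 2.07 CPM with DMSO. These values rest on 3 and 9 counts against 4 and 8, too few to read a direction in either line. GNE-781 against DMSO called 13 peaks (0.0209%), all lower, beside 4.18% lower and 2.4% higher at an unadjusted p under 0.05. Of the 13 called peaks 0 were among the 7 (0.0112%), and with sets this small nothing is read from that. All 13 had a negative log2 change on the pomalidomide background, where the median over all peaks was −0.03.

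**Figure D3:**
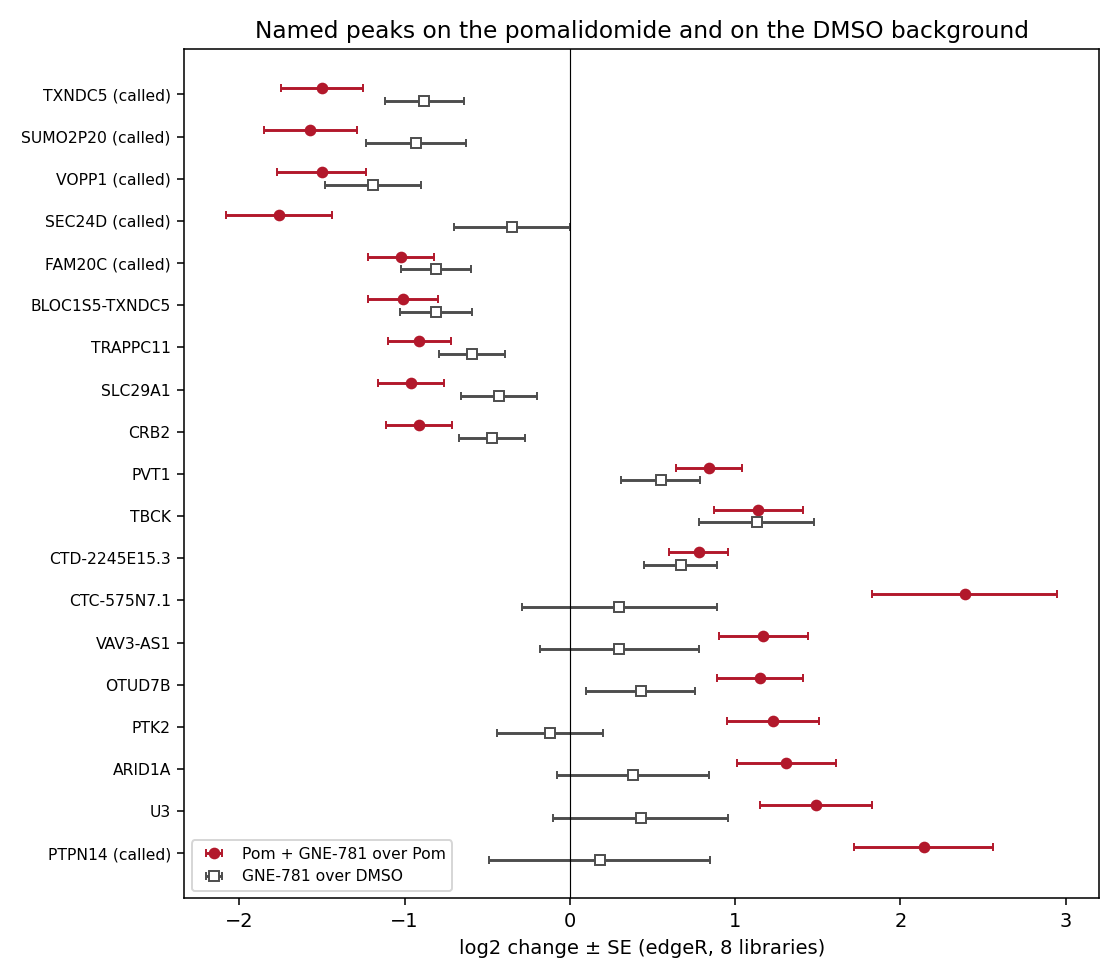
Log2 change ± SE (horizontal axis, edgeR with 8 libraries) at 19 of the peaks named by rank, for combination over pomalidomide (filled) and GNE-781 over DMSO (open). The filled points lie farther from 0 at all 19, which picking them for that contrast favours, and SEC24D (−1.76 and −0.35) and PTPN14 (2.14 and 0.18) have the widest gaps among the called peaks shown.

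Whether the change with GNE-781 differed between the backgrounds was tested directly, as combination minus pomalidomide minus GNE-781 plus DMSO. No peak passed: 0 of 62234 were called (0%) by edgeR or DESeq2, the lowest adjusted p was 1 when rounded, and 664 higher (1.07%) and 979 lower (1.57%) peaks (2.64% together) had an unadjusted p under 0.05 in edgeR. DESeq2 gave 88 and 128 at that unadjusted threshold. The 5 peaks of lowest p were annotated to LINC00351, PCCB, DPY19L1, COL5A1 and RP11-508N12.2. LINC00351, a long noncoding RNA gene, had the lowest p (0.000183 unadjusted), with 1.94 and 3.56 CPM with the combination, 0.333 and 0.643 CPM with pomalidomide, 1.28 and 0.97 CPM with GNE-781 and 4.51 and 4.92 CPM with DMSO. In PCCB, a mitochondrial carboxylase subunit gene, a peak read 2.91 and 3.56 CPM with the combination, 6.66 and 8.36 CPM with pomalidomide, 14.1 and 13.3 CPM with GNE-781 and 7.52 and 6.99 CPM with DMSO. These low values went opposite ways on the 2 backgrounds without passing the test.

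By position, promoter peaks (within 1000 bp of a start) included no call, and 2.57% of 15906 were lower and 1.05% higher at an unadjusted p under 0.05. Among 26769 peaks inside genes the shares were 6.19% and 2.56%, with 4 lower calls and 1 higher, and among 19559 intergenic peaks 5.39% and 3.23%, with 2 lower calls. Distal peaks in dense clusters, defined as 5 or more joined over gaps of up to 12.5 kb and numbering 3478 in 563 clusters, had 9.29% lower and 2.36% higher, against 5.58% and 2.88% of the other 42850 distal peaks. The called peaks of TXNDC5 and VOPP1 lay in such clusters. The median log2 change of the clustered peaks was −0.1, made of −0.03 in JJN3 and −0.13 in KMS11. Peaks that were at least 2-fold higher in JJN3 than in KMS11 without pomalidomide had 8.53% lower, and those higher in KMS11 had 4.09%.

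**Figure D4:**
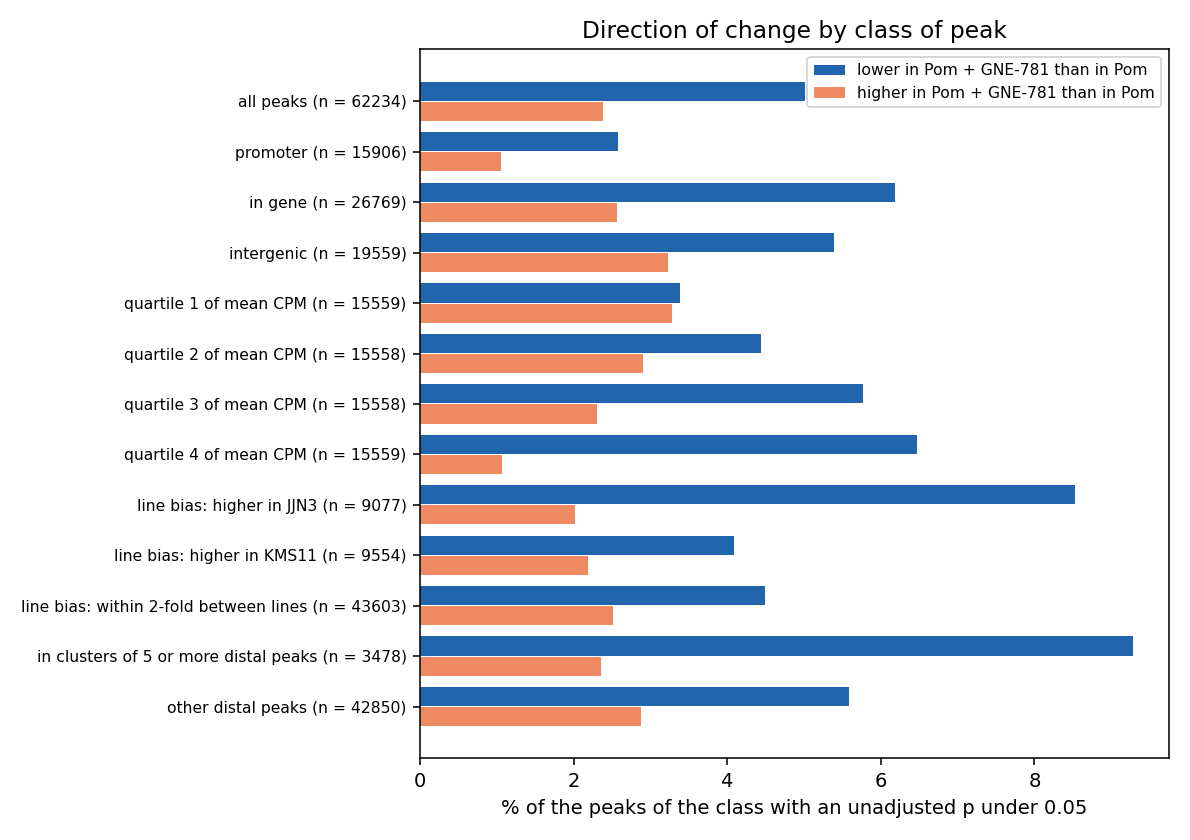
Percent of tested peaks with an unadjusted p under 0.05 (horizontal axis) that were lower (blue) or higher (orange) with the combination than with pomalidomide, by class of peak. Promoter peaks have the smallest lower share by position (2.57%) and dense clusters of distal peaks the largest (9.29%), and the lower share runs up with mean CPM, with 3.38% in the lowest and 6.47% in the highest quartile.

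These shares move with read depth per peak, whose part in them was not tested. The lower share was 3.38%, 4.44%, 5.77% and 6.47% over quartiles of mean CPM, while the higher share ran 3.28%, 2.9%, 2.3% and 1.06%. Under total count scaling the medians of peaks inside genes and of intergenic peaks moved to 0.018 and 0.052. Medians by chromosome ran from −0.08 on chromosome 2 to 0.04 on chromosome 22.

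None of the listed genes had a called peak in the 8-library fit, while the 4-library fit called the BANK1 peak given above. The 14 pathway lists and 5 cell marker lists named 449 genes, and 363 of these carried at least 1 peak. In them 0 peaks and 0 gene sums were called by edgeR with 8 libraries. The counts that follow are at an unadjusted p under 0.05, to be read against 5.01% lower and 2.38% higher over all peaks. The lists were chosen with earlier results of these data known.

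Among 175 peaks of 22 myeloma transcription factor genes, 15 (8.57%) were lower and 4 higher, with a median log2 change of −0.1. POU2AF1, a coactivator of octamer-binding factors in B and plasma cells, was singled out after its values were seen. Of its 17 peaks 6 were lower and 1 was higher, and 12 had a negative log2 change. The peak of lowest p, at chr11:111438857-111439687 inside the gene, held 186 counts in JJN3 and 62 in KMS11 with the combination, against 385 and 114 with pomalidomide (log2 change −0.75 ± 0.2, adjusted p 0.191 in edgeR). A second, at chr11:111450299-111450904, held 144 and 23 counts against 347 and 39 (−0.8 ± 0.21, adjusted p 0.206), and another, at chr11:111371164-111371585, 52 and 9 against 118 and 39 (−1.16 ± 0.32, adjusted p 0.235). The ratio was below 1 in both lines at all 3 after scaling. A promoter peak at chr11:111378644-111379640 changed by −0.39 ± 0.19, with 148 and 100 counts against 299 and 100. Another promoter peak, at chr11:111454762-111455363, went the other way (0.32 ± 0.26). The 1 higher peak, at chr11:111359171-111359475, changed by 0.84 ± 0.31. The sum of the 17 changed by −0.3 ± 0.11 (adjusted p 0.688 in edgeR). Summed peaks of IRF4 (−0.15 ± 0.17), PRDM1 (−0.2 ± 0.13) and MYC (−0.15 ± 0.14) had smaller changes in size, within 2 SE of 0. The sum of MAF changed by −0.01 ± 0.15. XBP1, with 1 peak, went the other way (0.14 ± 0.23), by 0.16 in JJN3 and 0.14 in KMS11.

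The genes of the plasma cell surface and secretory list had 71 peaks, 8 (11.3%) lower and 0 higher, and of 49 peaks of plasma cell markers, a list that shares genes with it, 8 (16.3%) were lower and 1 higher, with a median of −0.21. In the marker list, all of these were peaks of POU2AF1 (6 lower and 1 higher) and SDC1 (2 lower). The transcription factor list also counts those of POU2AF1, and the surface and secretory list those of SDC1. SDC1, which encodes the surface proteoglycan CD138 of plasma cells, had 7 of 8 peaks with a negative log2 change. Its peak at chr2:20214260-20214619 held 17 and 51 counts with the combination against 29 and 108 with pomalidomide (−0.96 ± 0.31, adjusted p 0.391 in edgeR), and its promoter peak 78 and 188 against 146 and 230 (−0.47 ± 0.19, adjusted p 0.539). Because the libraries differ in depth, only scaled values compare them, and these were lower in both lines for both peaks. In SEL1L, an adaptor of the ubiquitin ligase that clears misfolded proteins from the endoplasmic reticulum, a peak changed by −0.79 ± 0.23 (adjusted p 0.269).

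Genes of the drugs' targets had no call in that fit. Among 122 peaks of p300/CBP, other acetyltransferase, BET and deacetylase genes, 8 were lower and 5 higher, with a median of 0.01. The summed peaks of CREBBP changed by 0.42 ± 0.21 (adjusted p 0.79 in edgeR). Among 42 peaks of cereblon ligase and neosubstrate genes 4 were lower and 0 higher, with a median of 0.11. The IKZF1 promoter peak was 1 of the 4 (−0.64 ± 0.29, adjusted p 0.62 in edgeR). The sum of the 7 IKZF1 peaks changed by −0.14 ± 0.15, with −0.23 in JJN3 and −0.03 in KMS11. The summed peaks of IKZF3 changed by 0.22 ± 0.13, with 0.46 in JJN3 and 0.01 in KMS11. CRBN, the gene of cereblon itself, summed to 0.27 ± 0.19.

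In the cell cycle list 12 of 115 peaks (10.4%) were lower and 0 higher. Peaks in CCNE2, which encodes cyclin E2 (−1.47 ± 0.4, adjusted p 0.234 in edgeR), and in the G1 kinase gene CDK6 (−0.88 ± 0.25, adjusted p 0.269) had the lowest p. Among 107 peaks of apoptosis genes 9 were lower and 2 higher. They included 2 lower peaks of BCL2L1, which encodes the survival protein BCL-XL (−0.99 ± 0.33 and −0.8 ± 0.29), and a higher one in BMF, a pro-apoptotic BH3-only gene (1.09 ± 0.3, adjusted p 0.25). The BMF peak was higher in each line, by 0.98 in JJN3 and 1.07 in KMS11. The NF-kB list had 6 of 80 lower and 1 higher, led by TNIP1, a feedback inhibitor (−1 ± 0.29, adjusted p 0.283). The ETS and IRF list had 7 of 104 lower and 0 higher, with a median of −0.19. The adhesion and homing list had 7 of 86 lower and 0 higher, with CD47, the surface signal that restrains phagocytosis, at −0.78 ± 0.22 (adjusted p 0.238).

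The remaining pathway lists had 4 of 67 peaks lower and 2 higher for AP-1, BATF and related genes, 4 of 62 and 1 for interferon response genes, 4 of 80 and 4 for cytokine and JAK/STAT genes, 4 of 56 and 0 for B cell identity genes, and 1 of 42 and 2 for cytosolic ribosomal protein genes. IL6R and IL6ST, the receptor chains of interleukin-6, each had a higher peak (0.51 ± 0.19 and 0.96 ± 0.36), neither called, and IL6R also had a lower one (−0.65 ± 0.31). Of markers of other cell types, 0 of 25 peaks for T and NK cells and 0 of 12 for myeloid cells were lower or higher, against 1 of 10 lower for erythroid cells and 2 of 37 lower for stromal and endothelial cells.

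**Figure D5:**
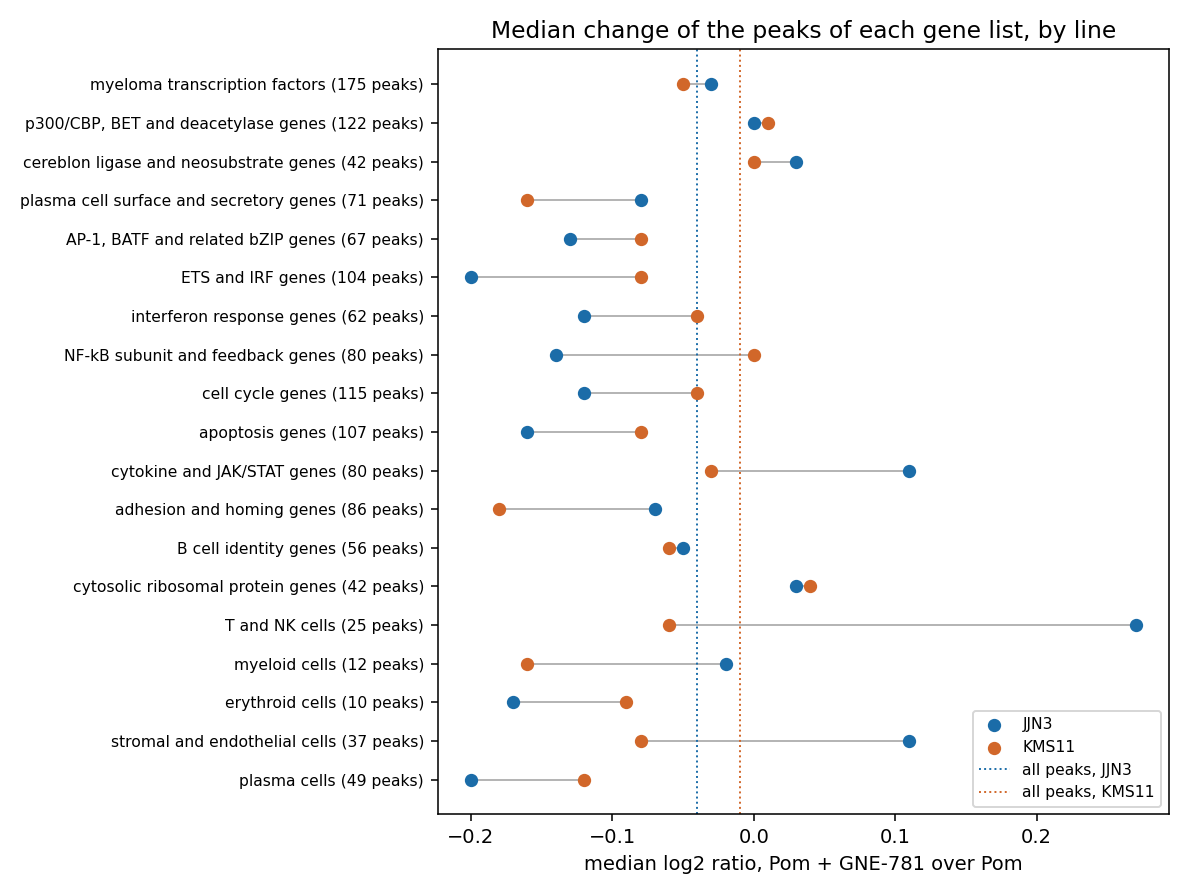
Median log2 ratio of combination over pomalidomide (horizontal axis) over the tested peaks of each list, in JJN3 (blue) and KMS11 (orange), with dotted lines at the medians over all peaks (−0.04 in JJN3 and −0.01 in KMS11). Most medians lie within 0.2 of 0 on the log2 scale; plasma cell markers sit at −0.2 in JJN3 and −0.12 in KMS11, and the T and NK cell list is the farthest to the right in JJN3 (0.27) but not in KMS11 (−0.06).

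Summing counts over all peaks annotated to a gene gave 25121 tested entries, of which 0 (0%) were called by edgeR, with a lowest adjusted p of 0.284 and 641 higher (2.55%) and 925 lower (3.68%) at an unadjusted p under 0.05, together 6.23%. DESeq2 also called 0. The 4-library fit called 10 gene sums (0.0398%), 9 lower (0.0358%) and 1 higher (0.00398%). TTC34, with 16 peaks, summed to 2172 and 5221 counts with the combination against 4418 and 5401 with pomalidomide in that fit (log2 change −0.38 ± 0.08, adjusted p 0.0345 in edgeR). PTP4A3, which encodes the tyrosine phosphatase PRL-3, summed over 7 peaks to 749 and 581 counts against 1479 and 735 (−0.5 ± 0.11, adjusted p 0.0345). No gene had more than 1 called peak. Counting lower peaks at an unadjusted p under 0.05, TTC34 had 7 of 16, POU2AF1 6 of 17, the kinase gene RPS6KA2 6 of 15, the homologous recombination gene RAD51B 6 of 26 and PTPRN2 6 of 67, a ranking taken after the values were seen.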

How the data were processed

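ATAC-seq read counts per peak were analysed for 8 libraries of JJN3 and KMS11 cells. Per the submitters' processing notes reads were handled with Bowtie2 2.3.5.1, MACS2 2.1.1.20160309, SAMtools 1.10, Trim Galore 0.6.4 with cutadapt 2.5, and R 4.1.2, on GRCh38. The deposited values are raw counts over united MACS2 peaks (q of 0.01), as the table's name says. Not given in the sources used here are how peaks were joined, whether reads or fragments were counted, and how duplicates and the transposase offset were treated. Peak calling in libraries of unequal depth can favour sites open in the deeper ones.

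Peaks reaching 2 CPM on average were tested with edgeR 4.0.16 in R 4.3.3 (TMM scaling, quasi-likelihood F test, two-sided, Benjamini-Hochberg adjustment over all peaks). Treatment and line were the terms, with 3 residual degrees of freedom and 62.8 prior ones from the spread shared over peaks. The line pairs the libraries: deviations from the treatment means correlated at 0.724 to 0.817 over 6 pairs of treatments. Log2 ratios within a line used a prior count of 2, and ratios of counts have exact binomial intervals. Genes were taken from the authors' annotation of each peak. Scripts were tested on simulated data.

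Named peaks are the 10 of lowest p in each direction that moved the same way in both lines, called ones first, and the 5 of lowest p in the test between backgrounds. Of the peaks this rule names, 1 is not reported here. For listed genes, called peaks would have been named. As none was called with 8 libraries, those of lowest p are given as values and were chosen after seeing them. The groups, members and lists were chosen with earlier results of these data known. Alternatives were the 4 compared libraries alone, no line block, DESeq2 1.42.0 size factors, total counts, cyclic loess, other filters, the DESeq2 Wald test, thinning to equal depth, each library left out, peaks within 50000 bp of a start for lists and a gap of 5000 bp for clusters.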

Additional observations from a re-analysis of the deposited data

How the results depend on the processing

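The count of 7 called peaks became 82 with only the 4 compared libraries, 0 with no replicate block for the line, 0 with the DESeq2 Wald test and 0 after thinning to the shallowest library. It was 5 to 7 with DESeq2 size factors, total counts, cyclic loess, no filter or a minimum mean CPM of 5. Leaving out each library gave 0 to 28 called peaks: 0 without the JJN3 combination, KMS11 combination or KMS11 pomalidomide library, 12 to 15 without JJN3 pomalidomide, JJN3 GNE-781 or KMS11 GNE-781, 20 without KMS11 DMSO and 28 without JJN3 DMSO. With 1 library left in a group, that library is assumed to vary like the others. At the settings with 0 calls all 7 calls were lost. Without JJN3 pomalidomide 4 calls were lost, among them PTPN14, SUMO2P20 and FAM20C, with total counts that of FAM20C and with loess those of PTPN14 and FAM20C. The 13 named but uncalled peaks were all called in the 4-library fit. None of the 20 named peaks changed sign under any alternative in which it was tested. At a minimum mean CPM of 5, only 12 of the 13 uncalled ones were tested. Called gene sums numbered 10 in the 4-library fit and 0 otherwise. The test between backgrounds gave 0 to 1 called peaks when leaving out each library, the 1 without KMS11 DMSO, and 0 otherwise. The causes of these differences were not tested. Total counts moved the median log2 change of all peaks by 0.06. Read with total counts, the same-sign shares in the GNE-781 and DMSO libraries, an alternative added after seeing the data, stayed at 68.3% and 63.6%. Within 50000 bp of a start the median of the cereblon list was 0.03, and with a cluster gap of 5000 bp 9.71% of 309 peaks were lower. Depth limits JJN3 most: at low peaks a few counts decide its ratio.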
